A study of Mus musculus with 12 samples.

Results

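The genes described here are the collagen chain genes of the mouse. Each gene whose symbol is Col, a type number, the letter a and a chain number was taken, which gave 44 of the 49315 genes counted. They fall into 11 chains of the fibrillar types, 8 of the basement membrane types, 9 of the FACIT types (collagens that sit on the surface of fibrils) and 16 chains of other types. RNA was measured from primary Müller glia, the radial glia of the retina, of wild-type mice, grown in transwell plates beside retinal pigment epithelium (RPE), also in primary culture. The RPE had been given 100 nM PNU-282987 (PNU), which activates α7 nicotinic acetylcholine receptors, in DMSO, or DMSO alone, and both cell types were kept together for 2 h or 6 h. This makes 4 groups of 3 libraries, named PNU 2 h, DMSO 2 h, PNU 6 h and DMSO 6 h, and DMSO reached the epithelium in all of them. The labels give the solvent as 0.1% in one place and 1% in another. The glia had been passaged repeatedly before use. The labels call the replicates biological but do not say whether they came from separate mice or cultures. Every p-value therefore rests on a spread between libraries that may be technical in part. The design asks whether an epithelium treated with the agonist changes expression in the glia.

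Collagens are secreted proteins built of chains that wind around each other into a stiff helix. Fibrillar types I, III and V form the fibers of connective tissue and scars, type II those of cartilage and vitreous. Type IV forms the sheet of every basement membrane, including the inner limiting membrane on which Müller glia endfeet rest and the Bruch membrane below the RPE. Type VI makes beaded microfilaments next to cells, type VII anchors epithelia, and type VIII is found in the Descemet membrane of the cornea. Many chains work only with a partner, and the 6 type IV genes lie in pairs that are read away from each other.

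Start regions are shown for 4 type IV genes, so that their paired layout can be seen, and for Col10a1 and Col15a1, the chains with the smallest p between treatments at 2 h and at 6 h. Col4a3 and Col4a4 start 72 bases apart on opposite strands of chromosome 1, with 71 bases between them (chr1:82586850-82586920, strand of Col4a4). Col4a5 and Col4a6 start 1309 bases apart on the X chromosome, and the 150 bases before each are printed (chrX:141475235-141475384 on the plus strand and chrX:141474077-141474226 on the minus strand). Col10a1 and Col15a1 have no collagen gene beside them (chr10:34389831-34389980 and chr4:47207862-47208011, both on the plus strand). The stretch of Col15a1 ends at its RefSeq start, upstream of 47208161, where the gene counted here begins, and the bases between are not printed. All are RefSeq sequences of GRCm38.p6, written 5′ to 3′ toward the gene.
Col4a3 and Col4a4, between the genes: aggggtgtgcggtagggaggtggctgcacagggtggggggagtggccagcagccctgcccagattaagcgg
Col4a5: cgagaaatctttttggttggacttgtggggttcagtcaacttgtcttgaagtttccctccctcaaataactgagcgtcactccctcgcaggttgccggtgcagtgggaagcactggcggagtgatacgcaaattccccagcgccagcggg
Col4a6: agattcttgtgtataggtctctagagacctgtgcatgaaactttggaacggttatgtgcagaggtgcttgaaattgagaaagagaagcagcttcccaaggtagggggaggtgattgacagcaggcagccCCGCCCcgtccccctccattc
Col10a1: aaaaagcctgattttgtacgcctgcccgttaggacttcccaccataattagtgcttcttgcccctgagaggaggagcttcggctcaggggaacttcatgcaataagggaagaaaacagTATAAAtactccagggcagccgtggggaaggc
Col15a1: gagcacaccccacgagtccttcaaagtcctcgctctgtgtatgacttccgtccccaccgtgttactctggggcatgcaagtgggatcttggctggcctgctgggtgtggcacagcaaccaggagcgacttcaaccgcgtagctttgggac
Capitals mark matches, on either strand, to the TATA box TATAAA or the GC box GGGCGG, and CCAAT and the RUNX core TGTGGT were searched as well, with no overlap between the matches. The printed stretch of Col10a1, the hypertrophic cartilage collagen, holds TATAAA near its end, and that of Col4a6 holds a GC box on the reverse strand. None of the motifs was found in the other printed stretches. Of 35 members with an entry in the promoter table, 38 windows of 250 bases before a start were searched, and 22 of them (57.9%) held GGGCGG, against 32.7% of all 32851 windows. TATAAA stood in 13.2% of the collagen windows and 12.4% of all, CCAAT in 34.2% and 33.8%, and TGTGGT in 7.89% and 14%. A match is a description of the letters and not evidence of binding.

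Library totals ran from 44332013 to 66518799 counts, so that 3 counts, taken as the floor of detection, were 0.0451 to 0.0677 CPM (counts per 1000000 counts of the library); this floor covers counting error only. In the PNU 2 h and PNU 6 h groups, replicates 2 and 3 differed from each other by a coefficient of variation of only 0.0171 and 0.0221 beyond counting noise, and the 3 DMSO 6 h libraries by 0.0162 to 0.0217. All other pairs within a group differed by 0.113 to 0.317. Over all genes, DMSO 2 h replicate 3 and PNU 2 h replicate 1 lay nearest to each other. The nearest library of PNU 6 h replicate 1, and of DMSO 2 h replicates 1 and 2, was DMSO 6 h replicate 3. By mean distance in log2 CPM, DMSO 2 h replicate 3 lay nearer to PNU 2 h (0.516) than to its own group (0.859). PNU 6 h replicate 1 likewise lay nearer to DMSO 6 h (0.489) than to its own group (0.706). No other library lay nearer to a group of the other treatment than to its own. Ddx3y, a Y-linked gene, stood at 2.23 to 7.43 CPM in PNU 2 h replicate 1, DMSO 2 h replicate 3 and PNU 6 h replicates 2 and 3, and at most at 0.141 CPM in the other libraries. Results are therefore also given without DMSO 2 h replicate 3 and PNU 6 h replicate 1. Of 12 Müller glia markers, Vim (6063 to 7451 CPM), Sox9 (63.4 to 292 CPM) and Glul (61.5 to 94.4 CPM) were present in every library. So were Dkk3 (9.54 to 67.5 CPM), Clu (5.53 to 42.8 CPM) and Apoe (5.35 to 14.2 CPM). Rlbp1, Aqp4, Kcnj10 and Gfap did not pass 0.326 CPM. The pericyte and smooth muscle gene Acta2 stood at 1502 to 2405 CPM and the fibroblast gene Pdgfra at 51.5 to 158 CPM. Other members of these lists were low: Rgs5 of pericytes did not pass 0.404 CPM, nor Fap and Lum of fibroblasts 0.521 and 1.13 CPM. A median over 1 CPM was reached by 7 of 12 Müller glia markers, 9 of 10 pericyte and smooth muscle markers and 8 of 10 fibroblast markers. The fibroblast list includes Col1a1 and Col1a2, which are among the collagen chains described here. A median over 100 CPM was reached by 1, 6 and 5 markers in the same order. Rpe65 and Tyr of the RPE did not pass 0.0442 CPM. In bulk RNA, fewer cells of a kind and less RNA per cell cannot be told apart.

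The cultures made collagen RNA of fibers, basement membrane and microfilaments together. The 44 genes took 2.90% to 3.84% of all counts, with group means of 3.05 ± 0.21% in PNU 2 h, 3.42 ± 0.44% in DMSO 2 h, 3.24 ± 0.268% in PNU 6 h and 3.54 ± 0.014% in DMSO 6 h (SD, n = 3). At 6 h the PNU libraries held 3.05% to 3.55% and the DMSO libraries 3.53% to 3.55%, so the groups overlapped, as they did at 2 h. A group mean of at least 100 CPM was reached by 16 chains, at least 10 CPM by 24 and at least 1 CPM by 33, of which 27 did so in every group. Another 11 chains stayed under 1 CPM in every group, and Col9a1, a chain of cartilage collagen IX, never passed the floor.

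To set chains against each other, counts were divided by gene length and scaled to a sum of 1000000 per library, which is called the length-scaled abundance. On this scale Col1a2 (1873 ± 192, SD, n = 12), Col6a1 (1828 ± 726) and Col1a1 (1732 ± 213) led, and their spreads overlapped, so their order is not fixed. Col4a1 (890 ± 109) and Col4a2 (860 ± 87.9), the pair that forms most basement membranes, followed together. Col3a1, Col6a3, Col5a2, Col5a1 and Col6a2 lay between 642 and 542 and did not differ beyond their spread. Below them came Col8a1 (314 ± 52.2), then Col15a1 (243 ± 67.7) beside Col12a1 (234 ± 37.4), and Col16a1 (114 ± 10.4) beside Col4a5 (111 ± 12.1). Col7a1 followed at 55.5 ± 23, and no other chain passed 16.8. The deposited length counts the exons of all transcripts merged. With the longest coding transcript instead, an alternative chosen after seeing the data, the first 3 kept their order and Col6a2 moved from the 10th to the 6th place. Col3a1 then moved from the 6th to the 4th place, ahead of Col4a1 (5th) and Col4a2 (7th). Col1a2 then stood above Col1a1 in every library, with a ratio of Col1a1 to Col1a2 of at most 0.589.

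**Figure D1:**
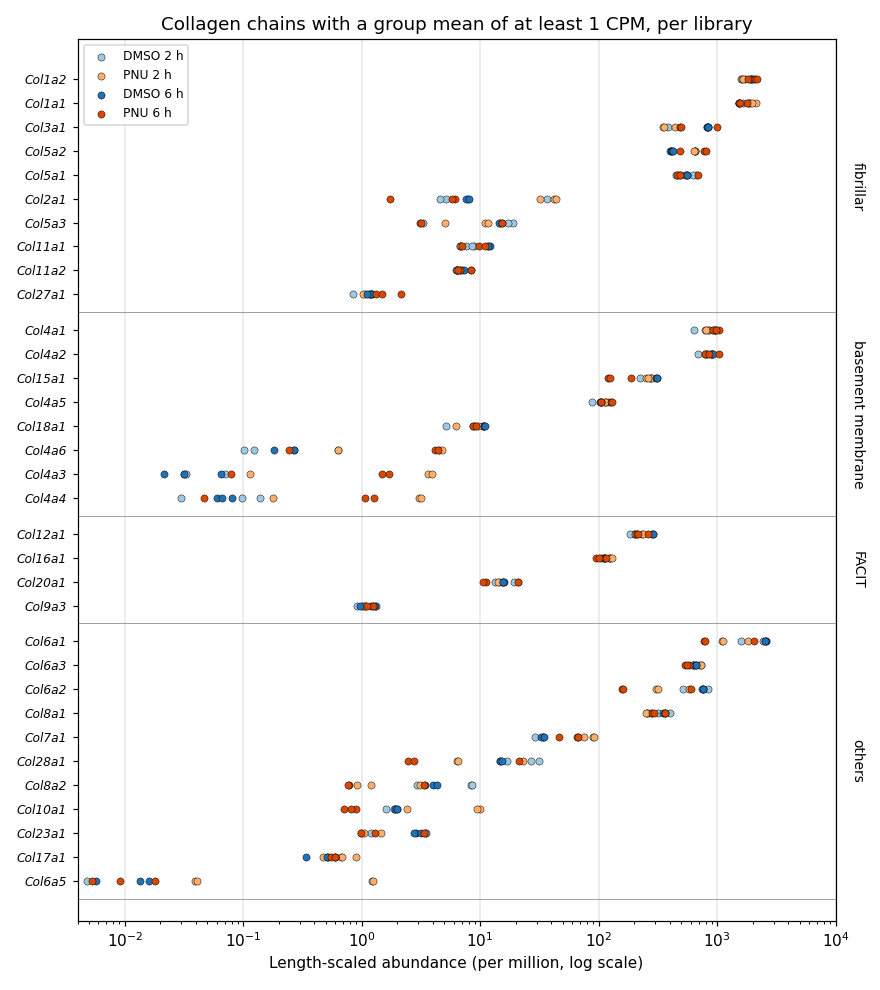
Length-scaled abundance (sum of 1000000 per library, log axis) of the 33 chains with a group mean of at least 1 CPM, by class, with 1 point per library coloured by group. Col1a2, Col1a1 and Col6a1 lie at the top of the scale; Col4a3, Col4a4, Col4a6, Col2a1 and Col6a5 spread widest between libraries.

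Fibrillar chains made up 42.7% to 56.5% of the length-scaled collagen RNA. Col1a1 and Col1a2, the chains of type I collagen, ranged over 3509 to 4895 CPM and 7041 to 9717 CPM, a narrow spread of 1.39-fold and 1.38-fold. Col5a1, which starts fibril assembly with Col5a2, ranged over 1361 to 2098 CPM. Col11a2 (15.1 to 21.5 CPM) of type XI was steadier than Col5a3 (7.70 to 48.6 CPM), the minor type V chain. Col27a1, a cartilage fibril chain, had its highest value, 9.89 CPM, in PNU 6 h replicate 1.
Col3a1, the fibrillar chain of distensible tissue, stood at 1499, 1213 and 1231 CPM in PNU 2 h, at 3047, 2907 and 1358 CPM in DMSO 2 h, at 3498, 1735 and 1777 CPM in PNU 6 h and at 2887, 2901 and 2918 CPM in DMSO 6 h. DMSO 2 h replicate 3 was thus low with the PNU libraries, and PNU 6 h replicate 1 was the highest of all. Col5a2, which lies tail to tail with Col3a1 on chromosome 1 with 24614 bases between them, showed 2187, 2184 and 2158 CPM in PNU 2 h, 1433, 1377 and 2227 CPM in DMSO 2 h, 1660, 2742 and 2779 CPM in PNU 6 h and 1403, 1397 and 1429 CPM in DMSO 6 h. Here the same pair of libraries again took the level of the opposite treatment or stood near it, in the other direction from Col3a1.
Col2a1, the main chain of cartilage and vitreous collagen, stood at 66.5, 89.3 and 92.0 CPM in PNU 2 h and at 11.6, 9.57 and 79.3 CPM in DMSO 2 h. At 6 h it stood at 3.69, 13.5 and 12.6 CPM with PNU and at 16.8, 16.1 and 17.2 CPM with DMSO. The high libraries were the 3 of PNU 2 h and DMSO 2 h replicate 3. Col11a1, a partner of type II collagen in cartilage fibrils, was at 30.4, 30.3 and 30.7 CPM in PNU 2 h, 36.2, 39.8 and 39.0 CPM in DMSO 2 h, 32.1, 45.4 and 50.7 CPM in PNU 6 h and 52.5, 54.8 and 52.8 CPM in DMSO 6 h. Its PNU libraries lay below the DMSO libraries at both times.

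Chains that share a molecule were compared as ratios of length-scaled abundance within a library. Col4a1 to Col4a2 was close to even and steady, at 1.04 ± 0.0755 (SD, n = 12; 0.926 to 1.17). Col1a1 to Col1a2 was 0.942 ± 0.201, from 0.727 to 1.24; it was 1.24, 1.16 and 1.21 in PNU 2 h and 1.19 in DMSO 2 h replicate 3, against 0.793, 0.786 and 0.786 in DMSO 6 h. By transcript length the mean of this ratio was 0.449, so its level, unlike its pattern over libraries, depends on the length used. Col5a1 to Col5a2 ran from 0.587 to 1.65: it was 1.65 and 1.53 in DMSO 2 h replicates 1 and 2 and 0.690 in replicate 3, and 1.42 in PNU 6 h replicate 1 against 0.587 and 0.610 in the other two. Col6a1 to Col6a2 was 3.11 to 3.61 in 10 libraries and 4.88 in both PNU 6 h replicates 2 and 3. Col8a1 to Col8a2, the chains of type VIII, varied most, from 37.3 to 378, with Col8a2 at 1.25 to 14.2 CPM.

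**Figure D2:**
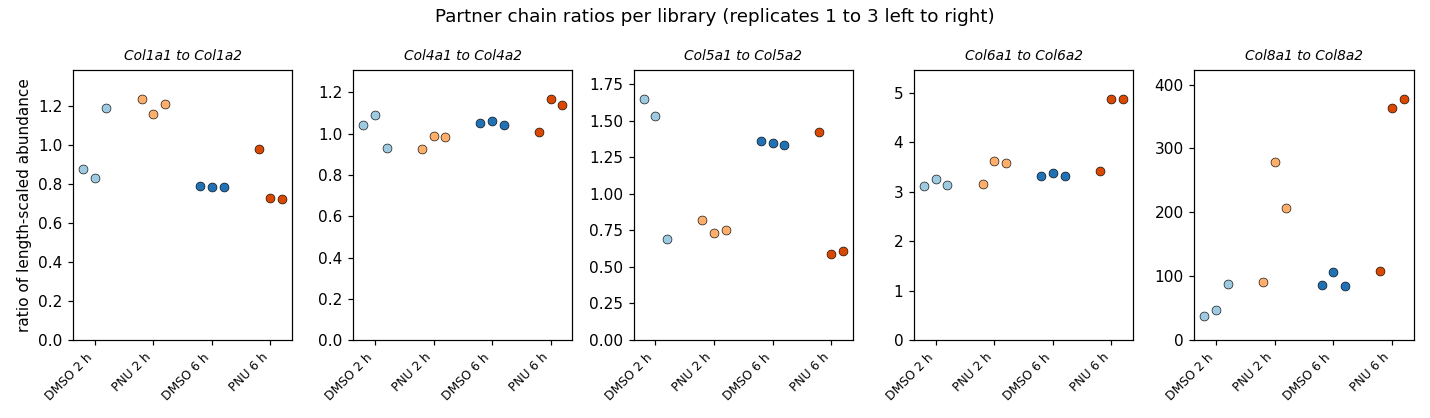
Ratio of the length-scaled abundance of 5 pairs of partner chains, with 1 point per library and the replicates in order within a group. Col4a1 to Col4a2 stays within 0.926 to 1.17, while Col5a1 to Col5a2 splits DMSO 2 h and PNU 6 h, with 1 library of each at the level of the opposite treatment.

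In the basement membrane class Col4a1, Col4a2 and Col4a5 varied little across libraries, Col15a1 varied more, and Col4a3, Col4a4 and Col4a6 varied widely. Col4a1 ranged over 1706 to 2765 CPM, Col4a2 over 1627 to 2423 CPM, and Col4a5, an X-linked chain, over 222 to 317 CPM. Col18a1, the source of endostatin, ranged over 13.1 to 28 CPM.
Col15a1 (chr4:47208161-47313167), a multiplexin of the basement membrane zone of muscle and vessels, stood at 624, 562 and 578 CPM in PNU 2 h, 663, 600 and 509 CPM in DMSO 2 h, 420, 276 and 284 CPM in PNU 6 h and 695, 693 and 696 CPM in DMSO 6 h. Its 3 PNU 6 h libraries were the lowest of the 12, and replicate 1 was the highest among them.
Col4a3 (chr1:82586921-82722059), a chain of the mature basement membrane of kidney, eye and ear, was at 0.398, 12.8 and 13.6 CPM in PNU 2 h and at 0.281, 6.19 and 5.42 CPM in PNU 6 h. In the 6 DMSO libraries it was 0.0756 to 0.250 CPM. Its head-to-head partner Col4a4 (chr1:82448423-82586849) followed, with 0.663, 11.4 and 11.8 CPM in PNU 2 h, 0.176, 4.17 and 4.84 CPM in PNU 6 h and 0.118 to 0.532 CPM with DMSO. Col4a6 (chrX:141165403-141474076), found in smooth muscle basement membranes, gave 1.77, 12.7 and 13.4 CPM, then 0.685, 12.2 and 12.8 CPM in the PNU groups, and 0.304 to 1.80 CPM with DMSO. All 3 chains were thus high in replicates 2 and 3 of both PNU groups, which are the near-identical pairs, and near the DMSO level in replicate 1. Col4a5, which lies head to head with Col4a6, stood at 288, 275 and 267 CPM in PNU 2 h and 222, 244 and 272 CPM in DMSO 2 h, where PNU replicate 1 was the highest. At 6 h it stood at 249, 313 and 317 CPM with PNU and 245, 245 and 250 CPM with DMSO, so there replicate 1 was at the DMSO level and replicates 2 and 3 were above it, by far less than for Col4a6. Col4a3 shares 563 exon bases with the antisense RNA C430014B12Rik and it is not known whether strand was used in counting; that RNA stayed at 0.383 to 0.907 CPM in all 12 libraries.

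**Figure D3:**
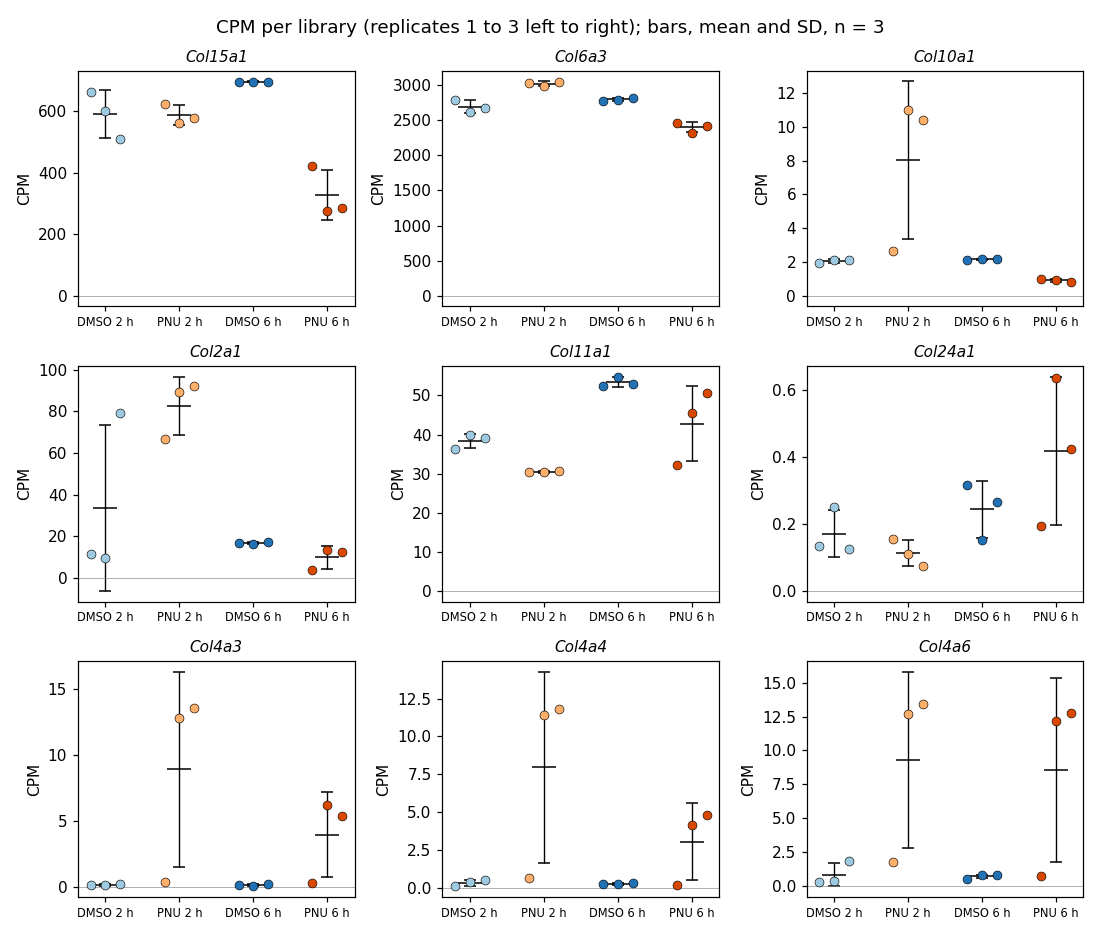
CPM of 9 chains per library (points, replicates in order), with mean and SD of each group of 3. Col15a1 is lowest in the 3 PNU 6 h libraries (276 to 420 CPM), and Col4a3, Col4a4 and Col4a6 are high in 2 of 3 libraries of each PNU group.

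FACIT chains were a small part, 2.68% to 3.48% of the length-scaled collagen RNA. Col12a1, which coats type I fibrils in tension-bearing tissue, ranged over 1010 to 1548 CPM, Col16a1 over 233 to 309 CPM and Col20a1 over 16.1 to 32.8 CPM. Col20a1 shares 79 exon bases with a gene model on its own strand, so part of its counts is uncertain. Col9a3 lay at 1.24 to 1.89 CPM, and the other 5 stayed under 1 CPM in every group.

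The remaining types held 19.1% to 35.5% of the length-scaled collagen RNA. Their share was 29.9%, 19.2% and 19.1% in PNU 6 h replicates 1, 2 and 3 against 35.4%, 35.5% and 35.2% in DMSO 6 h. Type VI carried this. Col6a1 stood at 2782, 1712 and 1730 CPM in PNU 2 h, 4262, 3715 and 2511 CPM in DMSO 2 h, 3197, 1234 and 1255 CPM in PNU 6 h and 3956, 3958 and 3923 CPM in DMSO 6 h. Col6a2, its neighbour on chromosome 10, stood at 1672, 901 and 917, then 2607, 2168 and 1526, then 1779, 481 and 489, and then 2270, 2224 and 2245 CPM in the same order of groups. At 2 h, DMSO replicate 3 lay below PNU replicate 1 for both chains, while at 6 h all 3 PNU libraries lay below all 3 DMSO libraries.
Col6a3 (chr1:90765923-90843971), which joins Col6a1 and Col6a2 in the type VI molecule, was steadier, at 3029, 2990 and 3048 CPM in PNU 2 h, 2789, 2617 and 2680 CPM in DMSO 2 h, 2461, 2325 and 2419 CPM in PNU 6 h and 2776, 2793 and 2819 CPM in DMSO 6 h. Its PNU libraries lay above all DMSO libraries at 2 h and below all of them at 6 h.
Col7a1, the anchoring fibril chain of skin, showed 270, 322 and 327 CPM in PNU 2 h, 130, 105 and 247 CPM in DMSO 2 h, 168, 249 and 250 CPM in PNU 6 h and 125, 118 and 125 CPM in DMSO 6 h, so that PNU lay above DMSO at both times. Col10a1 (chr10:34389981-34397085), a short chain of hypertrophic cartilage, stood at 2.63, 11.0 and 10.4 CPM in PNU 2 h, 1.91, 2.10 and 2.10 CPM in DMSO 2 h, 1.00, 0.933 and 0.799 CPM in PNU 6 h and 2.12, 2.19 and 2.18 CPM in DMSO 6 h. It too was above DMSO at 2 h and below it at 6 h. It shares 18 exon bases with Nt5dc1 on the opposite strand, which ranged only over 4.10 to 7.29 CPM.
Col8a1 ranged over 446 to 723 CPM. Col28a1, a chain related to type VI, ranged over 4.38 to 54.4 CPM, with its lowest values in PNU 6 h replicates 2 and 3. Of the rest, 4 chains had a highest group mean of 1 to 10 CPM (Col10a1, Col6a5, Col23a1 and Col17a1) and 5 stayed under 1 CPM.

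**Figure D4:**
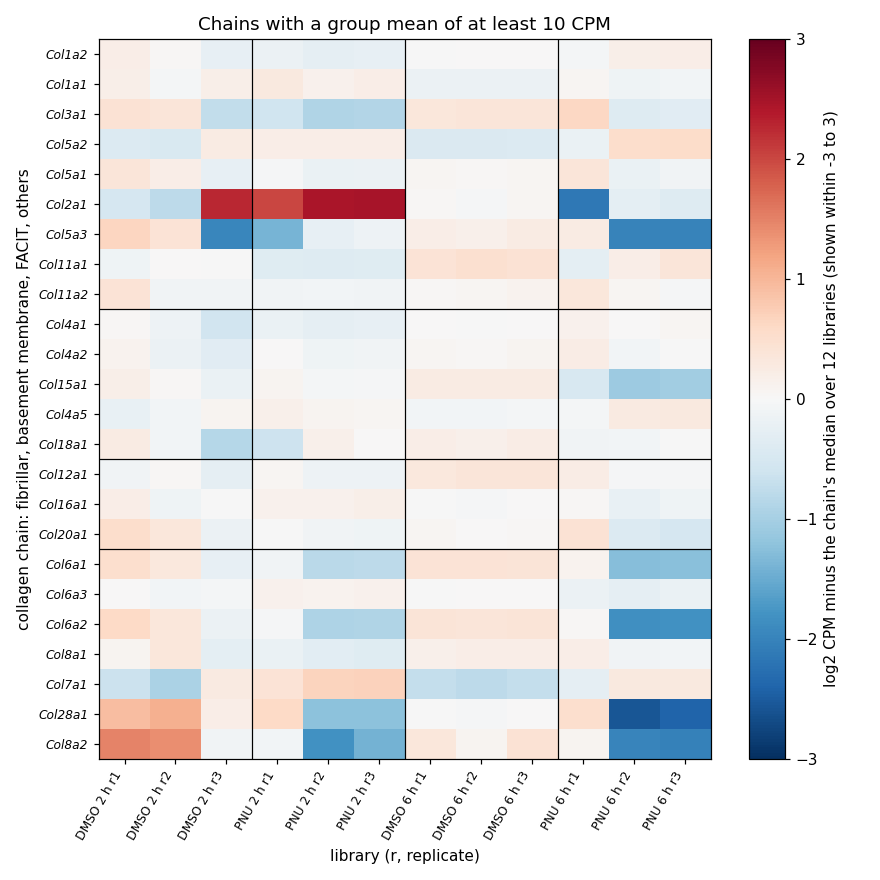
Level of the 24 chains with a group mean of at least 10 CPM in each library, as log2 CPM minus the chain's median over the 12 libraries (colour, shown within -3 to 3). DMSO 2 h replicate 3 resembles the PNU 2 h columns for Col2a1, Col3a1, Col5a2 and Col7a1, and PNU 6 h replicates 2 and 3 are low for Col6a1, Col6a2, Col28a1 and Col8a2.

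At 2 h no collagen chain differed between PNU and DMSO by the test. All comparisons use edgeR's quasi-likelihood test over the 17164 genes that passed a filter on low counts, with Benjamini-Hochberg adjustment over all of them and a threshold of 0.05; 37 of the 44 chains passed the filter. The called count was 0 of 37, where 0.291% of all genes tested were called, and 13 of the 37 had an unadjusted p under 0.05 against 30% of all genes. DESeq2 called 9 of the 33 chains to which it gave an adjusted p (16.6% of its genes) and limma-voom 0. The median log2 fold change of the 37 was 0.00 (0.001), against -0.015 for all genes. Col10a1 had the smallest p, with a log2 fold change of 2.01 ± 0.39 (SE; adjusted p = 0.0583). Col4a3 (5.78 ± 1.35; adjusted p = 0.0636), Col4a4 (4.57 ± 1.19; adjusted p = 0.0677) and Col7a1 (0.96 ± 0.27; adjusted p = 0.0737) followed. With groups compared library by library, 5 chains had every PNU library above every DMSO library (Col4a3, Col4a4, Col6a3, Col7a1 and Col10a1) and 3 below (Col9a2, Col11a1 and Col19a1), against 9.06% and 13.6% of all genes tested, 22.7% together.

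At 6 h the one chain that changed was Col15a1, which fell with PNU. Its level was 327 ± 81.2 CPM with PNU and 695 ± 1.84 CPM with DMSO (SD, n = 3), a log2 fold change of -1.07 ± 0.16 (SE; edgeR adjusted p = 0.00929), and it was lower in 3 of 3 libraries. This is 1 chain of 37, against 0.484% of all genes called lower and 1.05% in either direction. An unadjusted p under 0.05 was reached by 15 chains, against 15.6% of all genes. DESeq2 called 9 of the 35 chains to which it gave an adjusted p (5.51% of its genes) and limma-voom 1. Col15a1 lost the call without PNU 6 h replicate 2 or 3 or any 1 of the DMSO 6 h libraries (adjusted p = 0.0542 to 0.0631 by the same test), and its adjusted p was 0.9999 with near-identical libraries summed, at a log2 fold change of -0.98, a setting that called 0% of all genes. The Y-linked Ddx3y stood at 7.43 and 6.74 CPM in PNU 6 h replicates 2 and 3 and did not pass 0.141 CPM in DMSO 6 h. Treatment and this Y-linked difference are thus partly mixed for every gene compared at 6 h, and their parts were not tested.
The next chains were Col5a2 (0.78 ± 0.20; adjusted p = 0.102), Col4a3 (4.80 ± 1.36; adjusted p = 0.126), Col4a6 (3.66 ± 1.10; adjusted p = 0.143) and Col7a1 (0.87 ± 0.27; adjusted p = 0.147). Col6a1 stood at -1.04 ± 0.36 (adjusted p = 0.195) and Col6a2 at -1.28 ± 0.48 (adjusted p = 0.227). The median over the 37 chains was -0.109, against -0.005 for all genes. Every PNU library lay above every DMSO library for 5 chains (Col1a1, Col4a3, Col5a2, Col7a1 and Col27a1) and below for 12, among them Col2a1, Col6a1, Col6a2, Col6a3, Col10a1, Col12a1 and Col15a1; of all genes, 14.1% lay above and 20.8% below, 34.9% together. The type I chains had small differences, 0.14 ± 0.10 for Col1a1 and 0.12 ± 0.11 for Col1a2, and so did Col4a1 (0.08 ± 0.13) and Col4a2 (0.01 ± 0.13).

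For no chain did the difference between PNU and DMSO itself differ between 6 h and 2 h by the test (0 of 37; 0.035% of all genes). An unadjusted p under 0.05 was reached by 4 chains, against 11.3% of all genes. DESeq2 called 3 of the 34 chains to which it gave an adjusted p (1.77% of its genes) and limma-voom 0. The smallest p-values were those of Col10a1, at -3.24 ± 0.56 (6 h minus 2 h; adjusted p = 0.0886), and Col15a1, at -1.10 ± 0.22 (adjusted p = 0.110 by the same test). Col6a3, whose PNU libraries changed sides, gave -0.40 ± 0.10 (adjusted p = 0.190).

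Between 2 h and 6 h, 6 of 37 chains were called in the glia facing PNU-treated RPE, a share close to the 16.1% of all genes called. In the glia facing DMSO 0 chains were called, where 0% of all genes were. With PNU, Col11a1 (0.43 ± 0.13; adjusted p = 0.0445) and Col24a1, a fibrillar chain of developing bone and cornea (1.85 ± 0.51; adjusted p = 0.0333), rose. Col10a1 (-3.19 ± 0.42; adjusted p = 0.00281), Col2a1 (-3.11 ± 0.76; adjusted p = 0.0248), Col15a1 (-0.91 ± 0.16; adjusted p = 0.00728) and Col6a3 (-0.39 ± 0.07; adjusted p = 0.00790) fell. These are 2 chains up and 4 down of 37, against 7.42% and 8.66% of all genes, 16.1% in either direction. At an unadjusted p under 0.05 stood 11 chains, against 35.1% of all genes. DESeq2 called 9 of the 35 chains to which it gave an adjusted p (24.3% of its genes). By limma-voom 4 were called, without Col11a1 and Col24a1 (14.9% of all genes). Col2a1 went from 82.6 ± 14 to 9.92 ± 5.42 CPM and Col10a1 from 8.01 ± 4.67 to 0.911 ± 0.103 CPM (SD, n = 3). Col24a1 rested on little, 0.113 ± 0.0399 CPM at 2 h and 0.418 ± 0.222 CPM at 6 h. With near-identical libraries summed none of the 6 was called (adjusted p = 0.410 to 0.472), and in all Col11a1 was lost in 12 of 23 alternatives, Col24a1 in 9 of 22 and Col2a1 in 7 of 22. With DMSO, 4 chains had an unadjusted p under 0.05, against 4.77% of all genes, and edgeR (0% of all genes), DESeq2 (0.159% of its genes) and limma-voom called 0. Whether time acted differently in the PNU and DMSO groups is the test of the previous paragraph, which called none. Ddx3y stood at 2.23 CPM in PNU 2 h replicate 1 and at 7.43 and 6.74 CPM in PNU 6 h replicates 2 and 3. Time with PNU is therefore partly mixed with this Y-linked difference.

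Leaving out DMSO 2 h replicate 3 and PNU 6 h replicate 1 raised the counts both for collagens and for all genes. Each was left out because it lay nearer on average to a group of the other treatment than to its own. A rise in calls was thus built into this choice. At 2 h 21 of 37 chains were then called, 9 up and 12 down, against 52.2% of all genes (25.2% up and 27% down). At 6 h it was 20 of 37, 7 up and 13 down, against 28.6% of all genes (14.2% up and 14.4% down). Of the 10 libraries then left, 7 belong to the near-identical sets, so the spread behind these calls is small. At 2 h Col2a1 stood at 2.99 ± 0.15, Col7a1 at 1.41 ± 0.11, Col5a2 at 0.67 ± 0.06 and Col3a1 at -1.14 ± 0.10. At 6 h Col5a2 stood at 0.98 ± 0.06, Col7a1 at 1.04 ± 0.11, Col6a1 at -1.65 ± 0.21, Col6a2 at -2.20 ± 0.28, Col3a1 at -0.71 ± 0.10 and Col15a1 at -1.30 ± 0.08 (log2 fold change ± SE). Both PNU 6 h libraries then left held Ddx3y, at 7.43 and 6.74 CPM, and no DMSO 6 h library passed 0.141 CPM, so at 6 h treatment and this Y-linked difference cannot be told apart in these values. The difference between the times was then called for 8 chains (21.8% of all genes), time with DMSO for 1, Col11a1 (0.672%), and time with PNU for 18 (35.4%). Marker lists also differed in level between some groups. The Müller glia list summed to 7436 to 7752 CPM in PNU 2 h and 6289 to 7344 CPM in DMSO 2 h, and overlapped at 6 h. The fibroblast list, which includes Col1a1 and Col1a2, overlapped at 2 h. At 6 h it summed to 12916 to 13868 CPM with PNU and 12802 to 12843 CPM with DMSO. Of the pericyte and smooth muscle markers, 9 of 10 had a median over 1 CPM, and the list summed to 4476 to 4919 CPM in PNU 2 h and 3606 to 4341 CPM in DMSO 2 h, and to 4438 to 4498 and 3693 to 3755 CPM at 6 h. Retinal neuron markers, 2 of 10 over 1 CPM and Nrl at 0 in 10 libraries, summed to 39.6 to 51.3 CPM in PNU 2 h and 21 to 31.4 CPM in DMSO 2 h, and to 39.5 to 58.6 and 20.9 to 23.8 CPM at 6 h. Immune markers, 2 of 6 over 1 CPM and P2ry12 at 0 in 10 libraries, summed to 6.14 to 7.07 CPM in PNU 2 h and 3.87 to 6.65 CPM in DMSO 2 h, which overlapped, and to 9.75 to 11.9 and 4.37 to 4.86 CPM at 6 h. Endothelial markers, none of 6 over 1 CPM, summed to 1.39 to 1.86 and 1.63 to 2.06 CPM at 2 h, and to 2.28 to 2.77 CPM with PNU and 1.25 to 1.85 CPM with DMSO at 6 h. RPE markers, 1 of 10 over 1 CPM, overlapped at 2 h (2.21 to 3.72 and 2.17 to 4.75 CPM) and summed to 3.01 to 4.71 CPM with PNU and 4.89 to 5.2 CPM with DMSO at 6 h. The part of these in the collagen values was not tested.

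**Figure D5:**
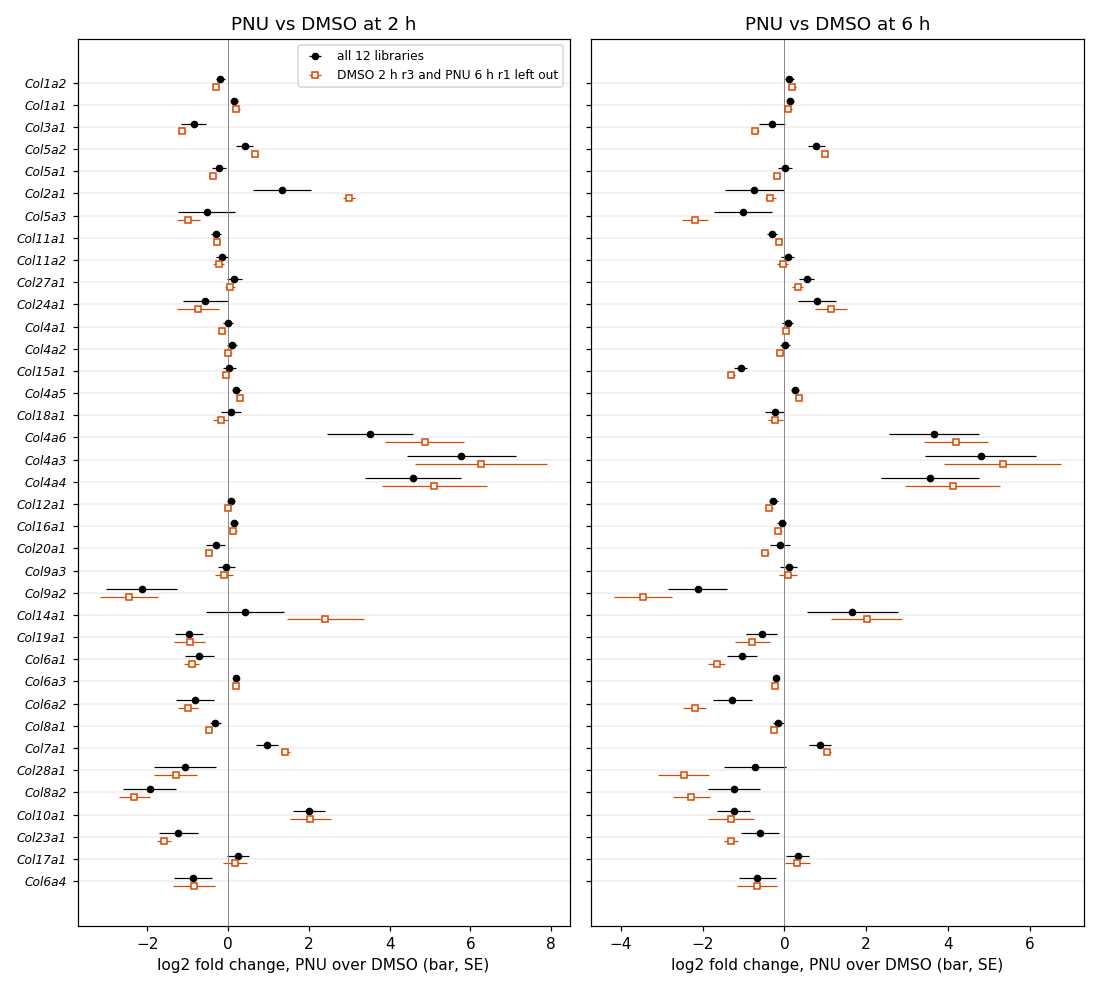
Log2 fold change of PNU over DMSO (bar, SE) for the 37 tested chains at 2 h (left) and 6 h (right), with all 12 libraries (filled) and without DMSO 2 h replicate 3 and PNU 6 h replicate 1 (open). Col15a1 at 6 h is the only filled point that passed the test; Col4a3, Col4a4 and Col4a6 lie farthest right, with wide errors.

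The genes that build, cut and bind collagen were read from the same fit. Of 31 genes for synthesis and processing, 28 were tested and none passed for PNU against DMSO at either time; 7 and 8 had an unadjusted p under 0.05, against 30% and 15.6% of all genes. Sparc, a collagen-binding matrix protein, was the most abundant per length, with 3905 ± 300.0 (SD, n = 12). Between 2 h and 6 h with PNU, where 16.1% of all genes were called, P4ha1, a prolyl hydroxylase subunit, rose by 0.32 ± 0.07 (adjusted p = 0.0174) and Fkbp14, a folding helper, by 0.48 ± 0.10 (adjusted p = 0.0155). P3h2, the prolyl hydroxylase best known for type IV collagen, changed by -0.93 ± 0.27 (adjusted p = 0.0403) and Creb3l1, a transcription factor that acts on Col1a1 in bone, by -0.49 ± 0.14 (adjusted p = 0.0359). Of 8 receptors and uptake genes, Itga11, the integrin chain for type I collagen, was higher with PNU at 6 h, where 1.05% of all genes were called, at 55.8 ± 22.9 CPM against 23.6 ± 1.23 CPM with DMSO (1.26 ± 0.23; adjusted p = 0.0275); its libraries stood at 82.3, 41.1 and 44.2 CPM with PNU and 24.6, 22.2 and 24 CPM with DMSO. Itgb1, its partner, led this list per length (982 ± 263) and was not called. Of 16 other basement membrane genes, Lama5 (-0.61 ± 0.11; adjusted p = 0.00905) and Pxdn, the enzyme that crosslinks type IV collagen (-0.28 ± 0.08; adjusted p = 0.0382), fell between 2 h and 6 h with PNU, where the share of all genes called was again 16.1%, and Nid1 led per length (814 ± 63.2).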

How the data were processed

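Per the labels' protocols, the authors sequenced poly(A) RNA as paired 150 bp reads. Trimming used fastp 0.23.2, alignment to GRCm38 used STAR 2.5.2b, and featureCounts (Subread 1.5.2) gave the gene counts. The deposited values are raw counts per gene, 1 table per library, not normalized. Use of strand and of multi-mapping reads and the annotation release are not given in the sources used here. DESeq2 appears, without a role, in the submitters' processing notes. Symbols were found for 48970 of the 49315 gene identifiers.

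CPM are counts over the library total, and length-scaled abundance uses the deposited gene length. Tests used edgeR 4.0.16 (R 4.3.3): filterByExpr, TMM, 1 robust quasi-likelihood fit of 4 group means over 12 libraries, 5 comparisons, and Benjamini-Hochberg adjustment over 17164 genes. The SE is the size of the log2 fold change over the square root of F. The fit was run on simulated counts of independent libraries with a common spread, unlike the near-identical libraries here. That run checked the code only. Alternatives were 2 scalings, DESeq2 1.42.0, voom of limma 3.58.1, 2 filters, fewer libraries, a replicate block and no robustness. The rule names all chains called in any comparison, all with a group mean of at least 10 CPM, and from 3 other lists up to 5 called genes and the most abundant per length; further chains were named after their values were seen. Members and lists were chosen with earlier results of these data known.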

Additional observations from a re-analysis of the deposited data

How the results depend on the processing

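Of the 7 chain calls, none changed direction under any alternative, and most counts moved with the libraries used. DESeq2 called 9 chains at 2 h, 9 at 6 h and 3 for the difference between the times; without a filter on low counts 1 was called at 2 h (0.427% of all genes). Fits of the compared libraries alone called 6 at 6 h (10.1%) and 10 for time with PNU (32.1%). Summing near-identical libraries left 0 at 6 h and 0 for time with PNU. Without DMSO 2 h replicate 3 and PNU 6 h replicate 1 the counts were 21, 20, 8, 1 and 18 in the order of the report. With 1 library left out they ran from 0 to 16 at 2 h, 0 to 11 at 6 h, 0 to 5 for the difference, 0 for time with DMSO and 3 to 13 for time with PNU; the share of all genes called under the same setting stands in brackets. At 2 h, 16 were called without DMSO 2 h replicate 3 (43.8%), 5 without PNU 6 h replicate 1 (2.77%) and 3 without PNU 2 h replicate 1 (0.737%). At 6 h, 11 were called without PNU 6 h replicate 1 (6%), 3 without PNU 2 h replicate 1 (1.08%) or DMSO 2 h replicate 3 (9.1%), and 0 without PNU 6 h replicate 2 or 3 or any DMSO 6 h library (0.124% to 0.216%). For the difference, 5 were called without DMSO 2 h replicate 3 (16.7%), 2 without PNU 6 h replicate 1 (0.801%) and 1 without PNU 2 h replicate 1 (0.0454%). For time with PNU, 13 were called without DMSO 2 h replicate 3 (34.2%), 10 without DMSO 2 h replicate 1 (24.3%) and 3 without replicate 2 or 3 of either PNU group (3.21% to 5.12%). The cause was not tested. Scaling by RLE or upper-quartile factors changed no count by over 1.5 times.

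Same-numbered PNU and DMSO libraries did not deviate together (correlations of -0.068 to 0.058), nor did DMSO libraries across the times (-0.012 to 0.027). Same-numbered PNU 2 h and PNU 6 h libraries correlated at 0.170, 0.111 and 0.099, so not every pair passed 0.1, and replicate 3 of PNU 2 h correlated with replicate 2 of PNU 6 h as closely (0.101). The numbers were therefore not taken to pair the samples. With the replicate number as a block, 4 chains were called at 2 h, 4 at 6 h, 0 for the difference, 0 for time with DMSO and 8 for time with PNU, against 1.81%, 1.72%, 0%, 0% and 16.6% of all genes.

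Without Col1a2 the collagen share was 2.32% in PNU 2 h, 2.57% in DMSO 2 h, 2.34% in PNU 6 h and 2.69% in DMSO 6 h. With TMM scaling it was 3.46% in DMSO 6 h. Leaving out 1 library moved it within 2.93 to 3.12%, 3.21 to 3.65%, 3.09 to 3.34% and 3.53 to 3.54% in the same order. From plain counts, Col1a1 to Col1a2 was 0.497, Col4a1 to Col4a2 1.17 and Col6a1 to Col6a2 1.89; by transcript length they were 0.449, 1.14 and 2.14. Chains under 1 CPM rest on few counts, so differences between groups were not detectable for most of them at this depth.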

Other observations

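Some rare chains were present in single libraries of different groups. Col6a5, a type VI chain with a restricted tissue distribution, stood at 4.07 CPM in PNU 2 h replicate 1 and 4.14 CPM in DMSO 2 h replicate 3, and did not pass 0.135 CPM in the other 10 libraries. Its neighbour Col6a6 stood at 1.08 and 0.844 CPM in the same libraries and at most at 0.0451 CPM elsewhere. Col14a1, a FACIT chain of tendon and skin, stood at 1.24 and 0.985 CPM there, against 0.0507 to 0.529 CPM in the others. Col6a4, next to Col6a5 on chromosome 9, did not set these libraries apart, with 0.464 and 0.469 CPM in a range of 0.109 to 0.524 CPM. These are the libraries that lay nearest to each other over all genes, and both held Ddx3y, at 2.23 and 5.00 CPM. Col6a5 and Col6a6 did not pass the filter on low counts and were not tested.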
